A study of Rattus norvegicus with 31 samples.

Results

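The 7 genes described here are textbook targets of the transcription factor NRF2 in the rat, namely *Nqo1*, *Akr7a3*, *Gclc*, *Gclm*, *Srxn1*, *Txnrd1* and *Hmox1*. They were taken by name from the 14217 genes that have a probe set of their own on the array, and every probe set annotated to one of them alone was read, 11 of the 31042 probe sets in all. Male Wistar rats, 3 weeks old at the start and with no genetic change, first had a week of chow. They were then given diets that differed in their carbohydrate to fat balance, freely for a week and then for 9 weeks of matched energy. As shares of energy, carbohydrate and fat made up 65 and 15% in the L-diet, 60 and 20% in the M-diet and 35 and 45% in the H-diet. During the 9 weeks the L-group ate freely and the M- and H-groups were given the same energy as the L-group. All rats were fasted for 17 h before sampling. Affymetrix GeneChip Rat Genome arrays were run for the liver of 5 L rats (L1 to L5), 4 M rats (M6, M8, M9 and M10) and 4 H rats (H12, H13, H15 and H16), and for white (WAT) and brown (BAT) adipose tissue of the same L and H rats. The depots of WAT and BAT are not given in the sources used here.

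NRF2 is held in the cytoplasm by KEAP1, an adaptor of a cullin ubiquitin ligase that marks it for degradation. When electrophiles or oxidants modify cysteines of KEAP1, NRF2 builds up, pairs with small MAF proteins and binds antioxidant response elements near its target genes. In the liver this pathway is known for raising the capacity to conjugate and reduce reactive compounds, through glutathione synthesis, the thioredoxin system, quinone and aldehyde reduction and heme breakdown. BACH1, a repressor, competes for the same elements and is best known for holding down *Hmox1*.

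Values are log2 units, and each tissue was normalized on its own, so a level in one tissue cannot be set against a level in another. The array medians ran from 4.67 to 4.70 in the liver, from 7.17 to 7.18 in WAT and from 2.43 to 2.51 in BAT. In WAT 25966 probe sets held 1 value on every array (a range of at most 0.001), and in BAT 13221 were never more than 0.1 above the floor of 2.29. Only 5076 probe sets varied in WAT and 20249 in BAT. The shares of all probe sets given below include the others, while counts of members and listed genes there cover varying ones alone. The defining genes of the labelled tissues were high in them (*Alb* and *Ttr* in the liver, *Adipoq* and *Fabp4* in WAT, *Ucp1* and *Cidea* in BAT), but *Elovl3*, a brown adipocyte gene, was at the floor in BAT, where *Alb* averaged 13.2 in the L-group with *Apoa1* and *Cps1* at the floor. The BAT arrays of H13 and H15 stood apart. The summed level of 6 skeletal muscle genes was 44.5 and 50.2 there against 29.1 to 30.3 on the other 7 BAT arrays. The BAT differences described below are therefore given with and without H13 and H15. The exceptions are *Nqo1*, which hardly varied, and the macrophage genes. The summed level of 3 mesothelial genes differed widely among the WAT arrays. It ran from 25.0 to 30.8 in the L-group and from 22.9 (H16) to 33.1 (H15) in the H-group. The part of these cells in the WAT results was not tested. As these are whole tissues, fewer cells of a type and less RNA per cell cannot be told apart, and the p-values below measure the spread between rats.

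The stretches of 250 bases before the transcription start (RefSeq, GRCr8) were available for 6 of the 7 genes, with 2 starts for *Txnrd1*, while *Hmox1* had no entry. They were searched on both strands for the antioxidant response element core TGACNNNGC, for the variant TGAGNNNGC and for TGAGTCA, an AP-1 type site whose first letters are shared with the variant. TGAGNNNGC and TGAGTCA were added after the sequences had been read. The core was found before *Gclm*, at -172, and before the second start of *Txnrd1*, at -78, and in 10.1% of all 33469 windows of this length. The variant occurred 2 times before *Srxn1*, at -118 and -17 (14.2% of windows hold it), which also held TGAGTCA at -62 (4.05% of windows). None of these letters occurred before *Nqo1*, *Akr7a3* or *Gclc*, or before the first start of *Txnrd1*. A match is a description of the letters, not a binding site, and elements outside these windows were not searched. The 4 windows below are shown because *Nqo1* and *Akr7a3* carried the widest diet differences in the liver and *Srxn1* and *Gclm* held matches (capitals mark the matches, 5′ to 3′ on the strand of the gene).
Nqo1, chr19:52220268-52220517, minus strand: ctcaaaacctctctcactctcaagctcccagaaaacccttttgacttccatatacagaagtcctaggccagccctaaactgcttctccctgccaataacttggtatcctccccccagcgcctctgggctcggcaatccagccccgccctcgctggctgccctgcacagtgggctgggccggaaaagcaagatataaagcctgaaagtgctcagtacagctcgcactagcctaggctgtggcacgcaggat
Akr7a3, chr5:156876471-156876720, plus strand: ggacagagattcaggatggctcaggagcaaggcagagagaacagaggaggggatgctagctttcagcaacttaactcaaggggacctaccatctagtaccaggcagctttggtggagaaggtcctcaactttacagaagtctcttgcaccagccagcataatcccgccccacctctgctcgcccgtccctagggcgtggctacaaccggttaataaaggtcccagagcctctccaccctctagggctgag
Gclm, chr2:213031885-213032134, plus strand: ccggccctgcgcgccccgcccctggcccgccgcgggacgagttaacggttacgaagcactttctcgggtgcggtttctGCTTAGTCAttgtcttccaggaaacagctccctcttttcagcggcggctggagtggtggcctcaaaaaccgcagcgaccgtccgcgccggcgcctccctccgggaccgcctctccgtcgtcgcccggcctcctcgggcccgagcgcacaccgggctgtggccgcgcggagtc
Srxn1, chr3:161064562-161064811, plus strand: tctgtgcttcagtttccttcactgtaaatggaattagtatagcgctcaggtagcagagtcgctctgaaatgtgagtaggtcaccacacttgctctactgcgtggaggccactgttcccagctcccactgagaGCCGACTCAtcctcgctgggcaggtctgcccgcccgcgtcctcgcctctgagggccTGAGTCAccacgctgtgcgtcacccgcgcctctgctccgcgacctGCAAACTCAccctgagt

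In the liver the clearest contrasts lay between the M- and H-groups and between the L- and H-groups. *Nqo1* and *Akr7a3* were called higher in the H-group than in the M-group by rank products, *Nqo1* and *Srxn1* were called higher in the H-group than in the L-group, and the M-group had *Akr7a3* called lower when set against the L-group. Limma, which sets each difference against the spread between rats, called none of the 11 probe sets in any of the 3 comparisons. The 3 comparisons share their groups, so they are not independent of each other, and the study itself named *Akr7a3* from these arrays, so its values are no independent evidence.

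*Nqo1* encodes a quinone reductase that passes 2 electrons to quinones and is a classical readout of NRF2 activity. Its log2 values were 5.23, 5.64, 5.65, 5.54 and 6.13 in L1 to L5, 5.18, 5.25, 5.38 and 5.55 in the M rats, and 5.75, 5.78, 7.41 and 6.11 in the H rats. All H rats lay above all M rats, and H15 lay far above every other liver, while L5 reached into the range of the H-group. The H-group was 1.89-fold higher than the M-group (log2 difference 0.92, SE 0.30; limma adjusted p = 0.706, rank products false discovery rate 0.00179) and 1.54-fold higher than the L-group (0.63, SE 0.28; adjusted p = 0.540, false discovery rate 0.0413). Without H15 the log2 differences were 0.54 and 0.24, and neither was called by rank products. The M-group differed from the L-group by -0.30 (SE 0.28, limma adjusted p = 0.9999).

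*Akr7a3* encodes aflatoxin aldehyde reductase, a liver enzyme known in rats for being induced by antioxidants that protect against aflatoxin. The L rats L1 to L5 had 8.50, 9.35, 7.58, 9.28 and 9.58, the M rats 7.99, 8.99, 7.85 and 7.81, and the H rats 9.31, 8.96, 10.36 and 8.96. The L-group spread from the lowest liver of all to above every H rat but H15, 3 of the 4 M rats lay below every H rat, and M8 lay among the H rats. The M-group was lower than the L-group by a log2 difference of -0.70 (SE 0.41; limma adjusted p = 0.9999, rank products false discovery rate 0.00813), a call that was lost without L5 (-0.52). The H-group was 2.36-fold higher than the M-group (1.24, SE 0.43; adjusted p = 0.750, false discovery rate 0.000769), and this call held without any one of the 8 rats, with a false discovery rate of at most 0.0146. Between H and L the difference was 0.54 (SE 0.41; adjusted p = 0.756, false discovery rate 0.0705), and it ranged from 0.22, without H15, to 0.72 when each rat was left out. Rank products called it higher without L2, L4 or L5 (false discovery rates 0.0401, 0.0365 and 0.0233).

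**Figure D1:**
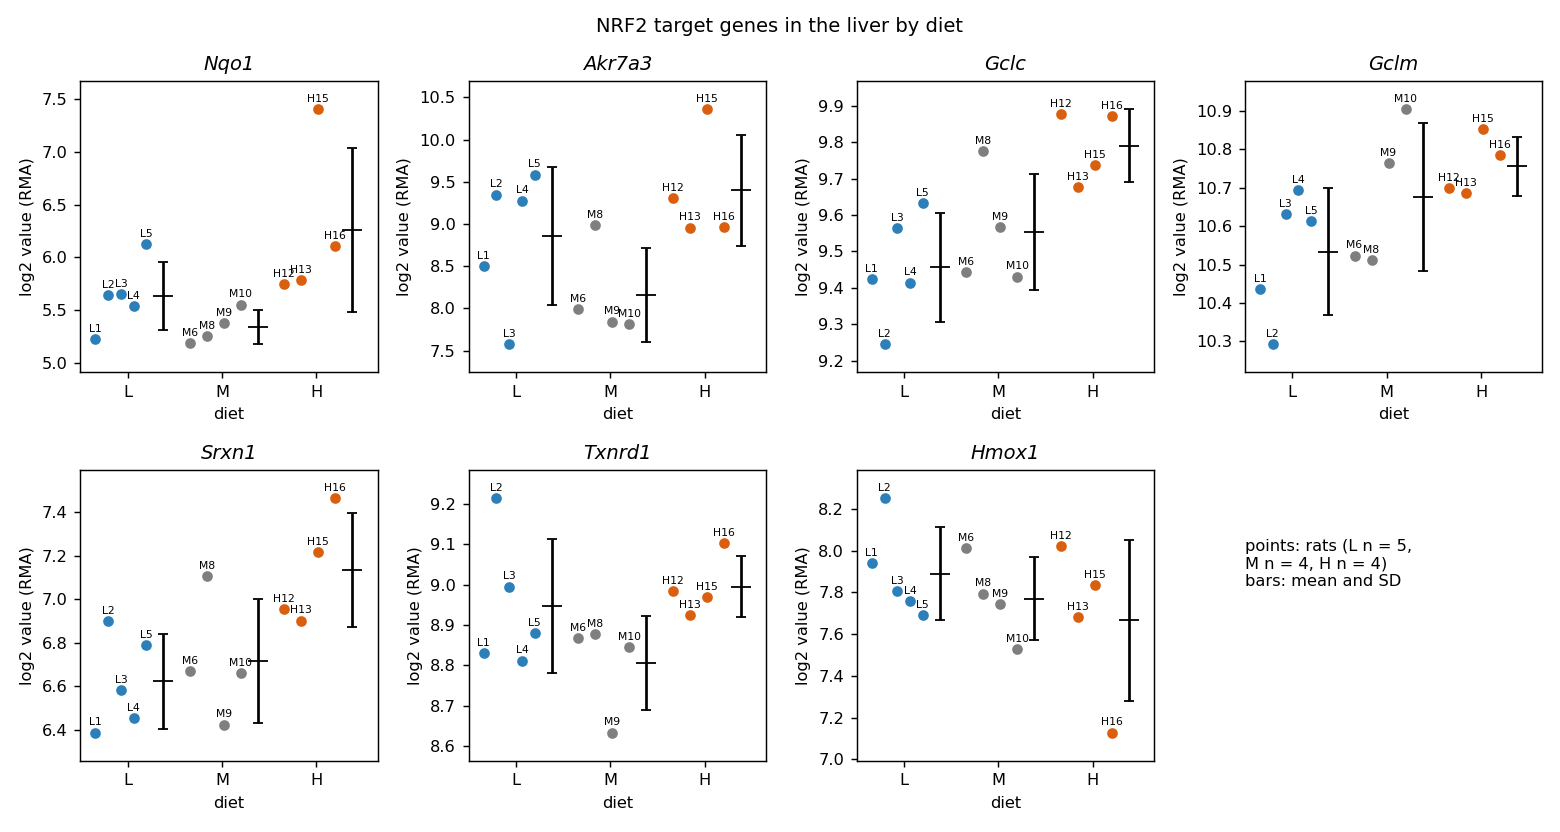
Liver log2 values (RMA) of the 7 genes by diet, each on the probe set that stands for the gene, with 1 labelled point per rat and the mean ± SD of each diet (L n = 5, M n = 4, H n = 4). The H rats lie above all M rats for *Nqo1* and *Txnrd1* and, by a margin that rounds away for *Srxn1*, above all L rats for *Gclc* and *Srxn1*.

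*Gclc* and *Gclm* encode the catalytic and the modifier subunit of glutamate cysteine ligase, the rate-limiting enzyme of glutathione synthesis. *Gclc*, on the brighter of its 2 probe sets, had 9.42, 9.25, 9.56, 9.41 and 9.63 in L1 to L5, 9.44, 9.77, 9.57 and 9.43 in the M rats and 9.88, 9.68, 9.74 and 9.87 in the H rats. Every H rat lay above every L rat, and M8 lay among the H rats. The difference of H from L was 0.33 (SE 0.09, 1.26-fold; limma adjusted p = 0.296, two-sided exact permutation p = 0.0159, where the smallest possible is 0.00794), and that of H from M was 0.24 (SE 0.09, adjusted p = 0.814). The other *Gclc* probe set gave 0.15 (SE 0.10, adjusted p = 0.699) and 0.21 (SE 0.10, adjusted p = 0.859).

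For *Gclm* the L rats had 10.44, 10.29, 10.63, 10.69 and 10.61, the M rats 10.52, 10.51, 10.76 and 10.90, and the H rats 10.70, 10.69, 10.85 and 10.78. The H rats lay close together (SD 0.08) and inside the range of the M rats, and 3 of the 4 lay above every L rat, H13 lying just below L4. The difference of H from L was 0.22 (SE 0.10, limma adjusted p = 0.526), that of H from M 0.08 (SE 0.10, adjusted p = 0.962) and that of M from L 0.14 (SE 0.10, adjusted p = 0.9999).

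*Srxn1* and *Txnrd1* serve the thioredoxin side of the defence: sulfiredoxin reactivates overoxidized peroxiredoxins, and thioredoxin reductase keeps thioredoxin reduced. *Srxn1* had 6.39, 6.90, 6.58, 6.45 and 6.79 in L1 to L5, 6.67, 7.11, 6.42 and 6.66 in the M rats and 6.95, 6.90, 7.22 and 7.47 in the H rats. The lowest H rat, H13, and the highest L rat, L2, differed by less than the rounding, and 3 of the 4 M rats lay below all H rats. The difference of H from L was 0.51 (SE 0.15, 1.43-fold; limma adjusted p = 0.343, rank products false discovery rate 0.0315) and that of H from M was 0.42 (SE 0.16; adjusted p = 0.790, false discovery rate 0.121). The other 2 *Srxn1* probe sets were dim, at 4.04 to 4.34 and 2.72 to 3.08, and did not show the difference (H from L 0.03, SE 0.06, and 0.01, SE 0.07).

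*Txnrd1* had 8.83, 9.21, 8.99, 8.81 and 8.88 in L1 to L5, 8.87, 8.88, 8.63 and 8.85 in the M rats and 8.98, 8.92, 8.97 and 9.10 in the H rats. All H rats lay above all M rats, but L2 and L3 reached as high as the H-group. The difference of H from M was 0.19 (SE 0.09, limma adjusted p = 0.850) and that of H from L was 0.05 (SE 0.08, adjusted p = 0.908). Its probe sets disagreed in direction in H against L, since the second gave -0.13 (SE 0.12, adjusted p = 0.806).

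*Hmox1* encodes heme oxygenase 1, which opens heme to biliverdin, iron and carbon monoxide. It was the one gene of the 7 whose mean was lower in the H-group than in both others. The L rats had 7.94, 8.25, 7.81, 7.76 and 7.69, the M rats 8.01, 7.79, 7.74 and 7.53, and the H rats 8.02, 7.68, 7.84 and 7.13. The groups overlapped throughout apart from H16, the lowest liver of all. The difference of H from L was -0.22 (SE 0.16, limma adjusted p = 0.749), and without H16 it was -0.04.

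Counted over the genes, each on the probe set that stands for it, 6 of 7 had a higher mean in the H-group than in the L-group and 6 of 7 a higher mean than in the M-group, with *Hmox1* the exception both times. The median log2 difference of the 7 was 0.33 in H against L and 0.24 in H against M, where the median over all probe sets was -0.00064 and 0.00022, and 49.3 and 49.7% of all probe sets differed by more than 0.001 upwards. In M against L 3 genes were higher and 4 lower, with a median of -0.12, where 48.8% of all probe sets differed upwards. With limma 4 of the 11 probe sets had an unadjusted p under 0.05 in H against L, all higher in H (*Nqo1*, *Gclc*, *Gclm* and *Srxn1*), where 9.05% of all probe sets did so and 4.54% in that direction, and none passed after adjustment (0.0354% of all did). In H against M it was again 4 of 11, all higher (*Nqo1*, *Akr7a3*, *Gclc* and *Srxn1*; 5.89% of all, 3.08% in that direction), and none passed after adjustment (0.0129% of all). In M against L none of the 11 had an unadjusted p under 0.05 (4.03% of all) or an adjusted one (0.00644% of all).

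Rank products called 2 of the 11 higher in H against L (0.664% of all probe sets were) and 2 higher in H against M (0.435%), and none lower (0.757 and 0.345% of all). In M against L they called 1 lower (0.245%) and none higher (0.142%). The calls in H against L were the least firm, as neither *Nqo1* nor *Srxn1* was called without L1, L4, H15 or H16, and neither at a false discovery rate of 0.01. The groups did not overlap for 2 probe sets in H against L (*Gclc* and *Srxn1*; 1.57% of all were higher without overlap) and for 2 in H against M (*Nqo1* and *Txnrd1*; 1.5% of all were). None was lower without overlap (1.44 and 1.39% of all were), and in M against L none was apart in either direction (0.477% of all higher, 0.519% lower). The summed level of 6 macrophage genes was 49.1, 49.1 and 49.2 in the livers of M6, M9 and H15 against 46.2 to 47.6 in the other 10. H15 was the liver with the highest *Nqo1* and *Akr7a3*, and M6 and M9 were among the lowest in both. The M-group had the lowest mean of both genes, so diet and this sum cannot be told apart in these livers. The part of these cells in the result was not tested.

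**Figure D2:**
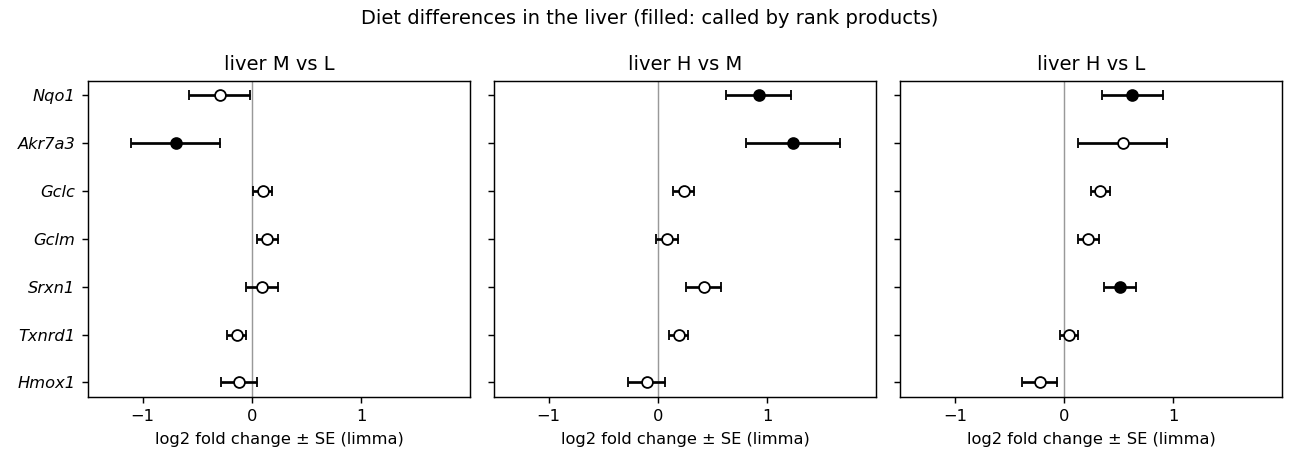
Log2 fold changes of the 7 genes in the liver with their limma standard errors, for M against L, H against M and H against L, where filled points were called by rank products. *Akr7a3* lies at -0.70 in M against L and at 1.24 in H against M, and *Hmox1* lies below 0 in all 3 comparisons.

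Whether the genes varied together among rats fed the same diet was asked over the 13 livers after the diet means had been removed. Of the 21 pairs none passed after Benjamini-Hochberg adjustment. *Srxn1* and *Txnrd1* were the closest pair (Pearson r = 0.723, permutation p = 0.00674, adjusted p = 0.138; Spearman rho = 0.791, permutation p = 0.00494, adjusted p = 0.104), and r was 0.733 without the 2 livers farthest from the median of *Srxn1*. The 2 subunits of glutamate cysteine ligase were not related beyond the spread (r = 0.117, permutation p = 0.751, adjusted p = 0.946). *Gclm* and *Hmox1* ran in opposite directions (r = -0.602, permutation p = 0.0131, adjusted p = 0.138; rho = -0.648, permutation p = 0.0226, adjusted p = 0.237; r = -0.421 without the 2 farthest livers).

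**Figure D3:**
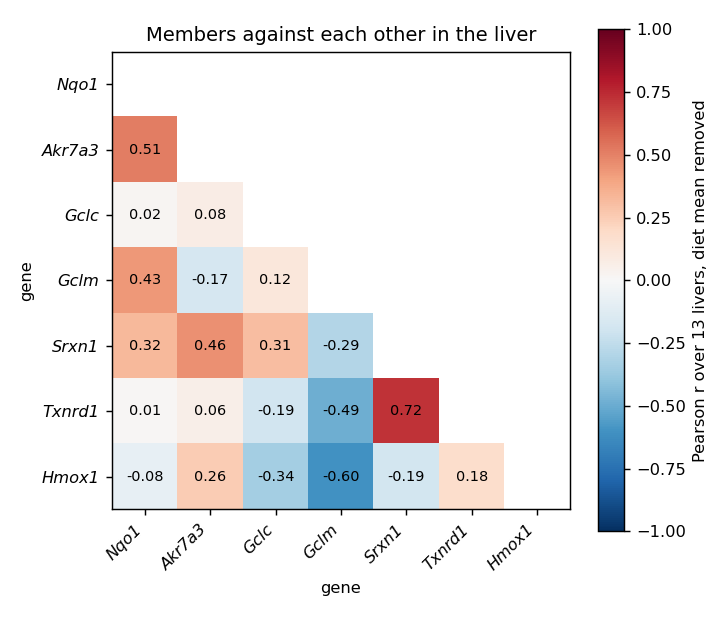
Pearson r of each pair of the 7 genes over 13 livers, with the mean of each diet removed. The values run from -0.60 for *Gclm* and *Hmox1* to 0.72 for *Srxn1* and *Txnrd1*, and none of the 21 pairs passed after adjustment.

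In BAT 9 of the 11 probe sets varied, and *Hmox1* alone was called, lower in the H-group by rank products. *Akr7a3* and 1 of the *Srxn1* probe sets lay at the floor on all 9 arrays, and *Nqo1* hardly moved, from 5.20 to 5.43. *Hmox1* values were 7.43, 9.96, 7.03, 8.64 and 6.47 in L1 to L5 and 9.05, 6.84, 6.61 and 4.09 in H12, H13, H15 and H16. The groups overlapped almost fully, and the rats of one diet ranged from 6.47 to 9.96 (L) and from 4.09 to 9.05 (H). The log2 difference of H from L was -1.26 (SE 1.11, 0.418-fold; limma adjusted p = 0.970), and its estimated false discovery rate in rank products was 0 in 100 permutations. Rank products call a probe set by the size of its ratios, without dividing by the spread between rats, and 1.29% of all probe sets were called lower and 0.68% higher. The rank products call held without any one rat and without H13 and H15 together (-1.34, false discovery rate 0.00121), but the size moved to -0.41 without H16, -0.75 without L2 and -2.06 without H12. The study named *Hmox1* from these arrays, so this is no independent evidence.

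The other genes were not called in BAT. *Srxn1* had 8.30, 7.27, 7.64, 7.37 and 7.13 in the L rats and 7.76, 7.98, 7.91 and 7.63 in the H rats, a difference of 0.28 (SE 0.24, limma adjusted p = 0.970), and it was 0.15 without H13 and H15. All H rats lay above L2, L4 and L5, and L1 lay above all of them. *Gclm* differed by -0.155 (SE 0.33; -0.42 without H13 and H15), and the sign rested on H16, which had 5.30 against 6.22 to 6.90 on the other arrays, since the difference was 0.20 without it. *Gclc* differed by -0.11 (SE 0.21; -0.20 without H13 and H15) and *Txnrd1* by -0.16 (SE 0.14; -0.29 without them), each with a limma adjusted p of at least 0.970. With limma 0 of the 9 varying probe sets had an unadjusted p under 0.05 (4.47% of all) or an adjusted one (0% of all), and none had groups apart (0.805% of all were higher without overlap and 0.709% lower).

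Macrophages also express *Hmox1*. The 6 macrophage genes with a probe set of their own summed to 24.3 to 25.3 on the BAT arrays of the L-group and to 26.5, 23.5, 26.4 and 23.4 in H12, H13, H15 and H16. *Clec4f* was at the floor, and *Cd163* averaged 2.30 in the L-group and 2.34 in the H-group, close to the floor. The sum was high in H12 and low in H16, as *Hmox1* was, but H15 did not follow. In WAT the sum was 54.4 to 55.5 in the L-group and 55.3 to 57.0 in the H-group, higher where *Hmox1* was on average lower. The members of the sum did not all move alike. With all arrays *Cd14*, like *Hmox1*, averaged lower in the H-group, with a log2 difference of -0.94 in BAT (SE 0.46) and -0.12 in WAT (SE 0.10). *Cd68*, *Cd163*, *Adgre1* and *Csf1r* averaged higher in both tissues, *Cd68* by 0.74 in BAT (SE 0.32) and 0.50 in WAT (SE 0.21). The part of these cells in the results was not tested.

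**Figure D4:**
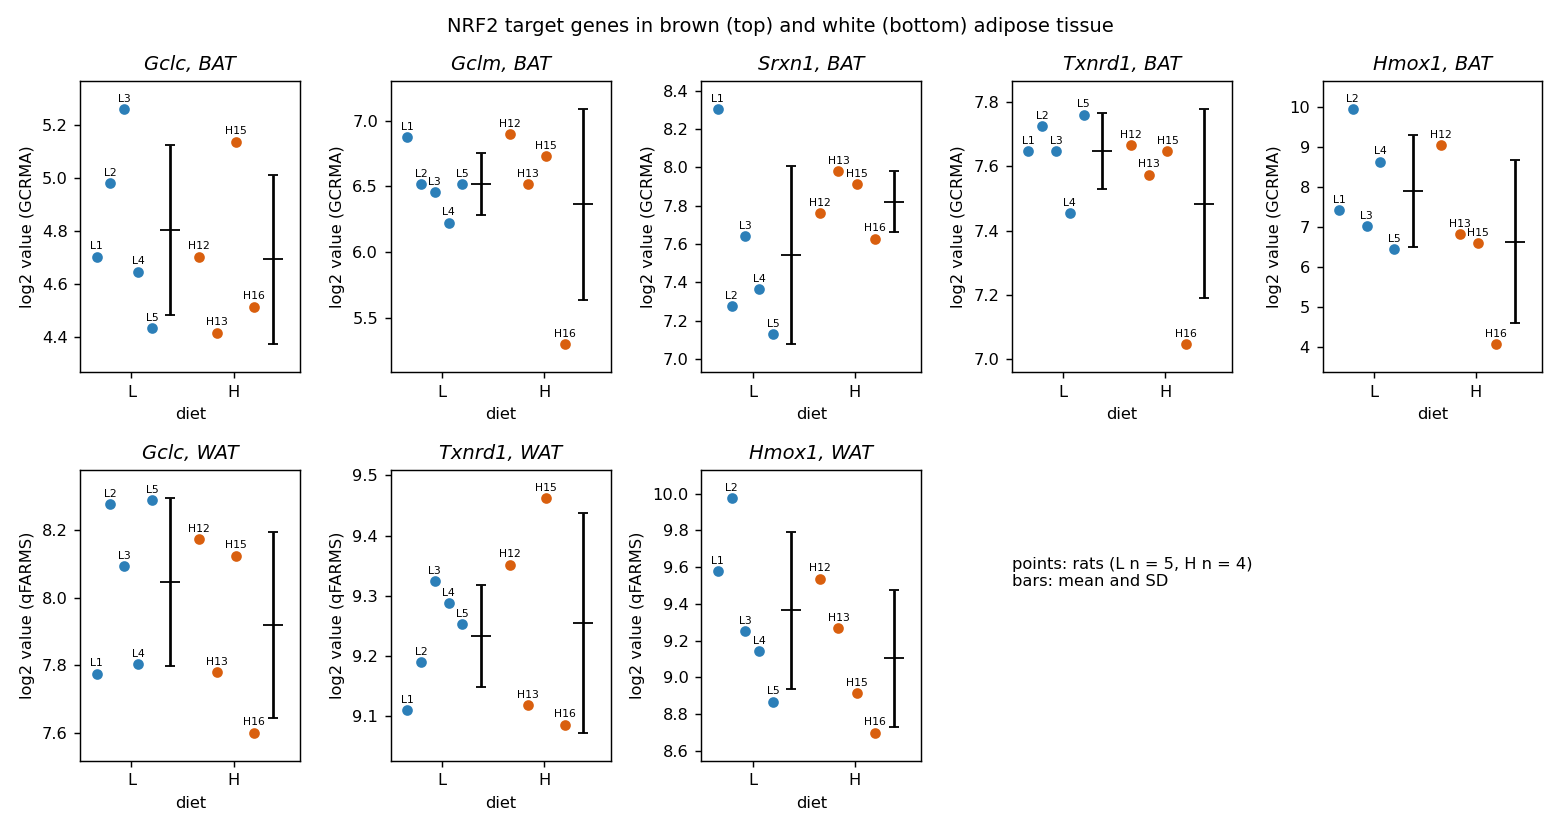
Log2 values of the genes that varied in BAT (top, GCRMA; *Nqo1*, which spanned 5.20 to 5.43, is left out) and WAT (bottom, qFARMS), with 1 labelled point per rat and the mean ± SD of each diet (L n = 5, H n = 4). H16 lies lowest of all rats for *Gclm*, *Txnrd1* and *Hmox1* in BAT and for *Gclc*, *Txnrd1* and *Hmox1* in WAT.

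In WAT 8 of the 11 probe sets held 1 value on every array, among them those of *Nqo1*, *Akr7a3*, *Gclm* and *Srxn1*, so differences in these genes could not be seen there. *Hmox1* had 9.58, 9.98, 9.25, 9.14 and 8.87 in the L rats and 9.54, 9.27, 8.91 and 8.70 in the H rats. The groups overlapped, with L2 highest and H16 lowest. The difference was -0.26 (SE 0.27; limma adjusted p = 0.851, rank products false discovery rate 0.0676), and rank products called it only without L5, H12 or H13. *Gclc* differed by -0.13 (SE 0.17, adjusted p = 0.929) and *Txnrd1* by 0.02 (SE 0.09, adjusted p = 1.0). None of the 3 was called by limma (0.0548% of all probe sets were) or by rank products (1.08% of all were called lower and 0.734% higher), and none had an unadjusted limma p under 0.05 (5.84% of all) or groups apart (0.267% of all were higher without overlap and 0.168% lower).

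An interaction term asked whether the H against L difference itself depended on the tissue, with each tissue on its own scale. No member probe set passed in any pair of tissues with limma (0.206% of all probe sets did for liver and BAT, 0.177% for liver and WAT and 0.0419% for WAT and BAT). Unadjusted p under 0.05 was reached by 1 of 3 member probe sets that varied in both liver and WAT, by none of 9 for liver and BAT and by none of 3 for WAT and BAT, against 10.6% of all for both pairs with liver and 5.05% for WAT and BAT. Among member probe sets that varied in both tissues, the smallest unadjusted p belonged to *Gclc* in liver against WAT, where the differences of 0.33 and -0.13 were 0.46 apart (SE 0.18, unadjusted p = 0.0222, limma adjusted p = 0.371). For *Hmox1* the liver and BAT differences of -0.22 and -1.26 were 1.04 apart (SE 1.08, adjusted p = 0.798).

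The tissues of one rat could also be set side by side, and here *Hmox1* stood out. L2 had the highest *Hmox1* of the 9 rats in liver, WAT and BAT, and H16 had the lowest in all 3. With the diet means removed, the liver and BAT values had a Pearson r of 0.891 over the 9 rats (exact permutation p within diets = 0.00729, adjusted p = 0.0401; Spearman rho = 0.767, exact p = 0.0361, adjusted p = 0.132). Liver and WAT had an r of 0.830 (exact p = 0.00451, adjusted p = 0.0401; rho = 0.883, exact p = 0.00556, adjusted p = 0.0611), and WAT and BAT an r of 0.815 (exact p = 0.0111, adjusted p = 0.0407; rho = 0.717, exact p = 0.05, adjusted p = 0.138). The p-values were adjusted over 11 relations of the 5 genes that varied by at least 0.3 in a pair of tissues, a comparison chosen after the data had been seen, and no rho passed. Without the 2 rats farthest from the median of the first tissue, r was 0.754, 0.768 and 0.539. Without L2, r was 0.853 for liver and BAT (exact p = 0.0694) and 0.739 for WAT and BAT (exact p = 0.0642).

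No relation of the other genes passed the adjustment. *Srxn1* ran in opposite directions in liver and BAT (r = -0.627, exact p = 0.0507, adjusted p = 0.139; rho = -0.800, exact p = 0.0146, adjusted p = 0.0802). *Txnrd1* had an r of 0.505 between WAT and BAT (adjusted p = 0.572), and r was -0.0689 without the 2 farthest rats.

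**Figure D5:**
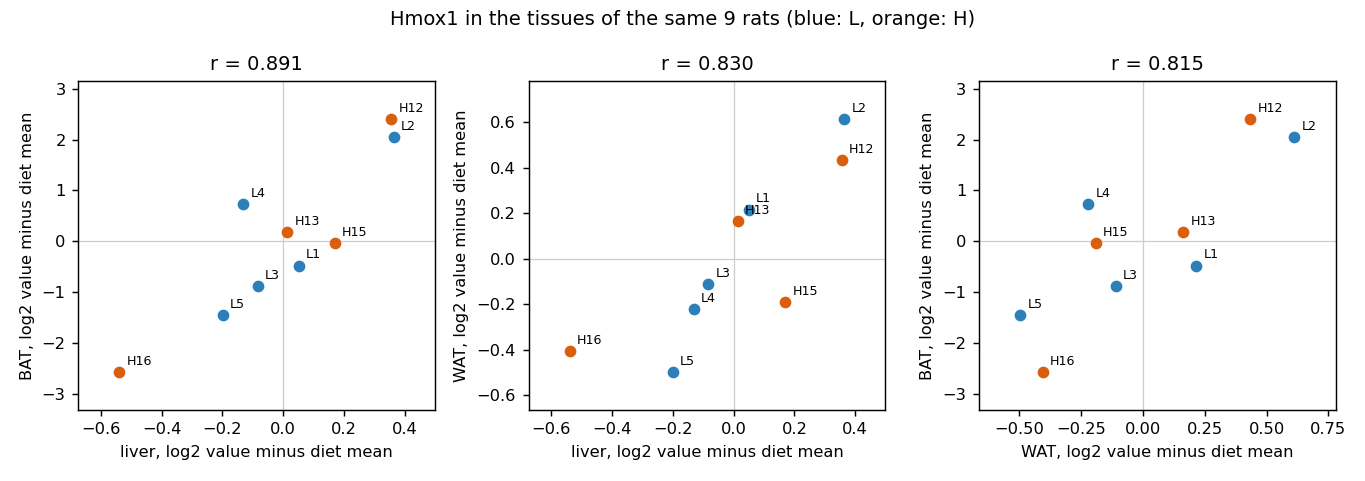
*Hmox1* in pairs of tissues of the same 9 rats, as log2 values minus the mean of the diet in that tissue, 1 labelled point per rat. L2 and H12 lie at the upper right and H16 and L5 at the lower left of all 3 panels, with r = 0.891, 0.830 and 0.815.

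The regulators of the pathway were measured as well. Limma passed none of the 10 regulator genes in any comparison. Unadjusted p-values under 0.05 were found for 1 gene in H against L and 1 in H against M of the liver (9.05 and 5.89% of all probe sets). They were also found for all 3 that varied of the 10 in WAT (5.84% of all) and for 3 of 9 varying genes in BAT (4.47% of all). Without H13 and H15, *Mafk* and *Sqstm1* in BAT stayed under 0.05 (limma unadjusted p = 0.000312 and 0.0375), and *Rbx1* did not (0.175). The shares in WAT and BAT include probe sets that did not vary, so they are not on the same basis as the counts. Rank products called *Maff* alone, higher in WAT of the H-group where 0.734% of all were (0.49, SE 0.15, limma adjusted p = 0.672). *Nfe2l2*, which encodes NRF2 itself and was picked for that reason after its values had been seen, had 9.69 to 10.52 in the L-group, 9.83 to 10.55 in the M-group and 9.93 to 10.22 in the H-group, with a difference of H from L of -0.06 (SE 0.17, adjusted p = 0.945). *Keap1* had 7.54, 7.58, 7.57, 7.45 and 7.54 in the L livers, 7.62, 7.52, 7.49 and 7.54 in the M livers and 7.62, 7.80, 7.64 and 7.66 in the H livers. All H livers lay above all others, though H12 and M6 differed by less than the rounding, and the difference of H from L was 0.15 (SE 0.05; limma unadjusted p = 0.0124, adjusted p = 0.427). In BAT *Sqstm1*, which encodes the autophagy receptor p62 that can displace NRF2 from KEAP1, was lower in every H rat (-0.36, SE 0.13, adjusted p = 0.970; -0.46 without H13 and H15), and *Mafk*, a small MAF partner of NRF2, differed by 0.30 (SE 0.08, adjusted p = 0.697; 0.33 without them).

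Of 25 further NRF2 targets, 20 had a probe set of their own. In the liver 14 of 20 were higher and 6 lower in H against L (median 0.04), and 16 higher and 4 lower in H against M (median 0.14), where 49.3 and 49.7% of all probe sets differed upwards. None passed limma after adjustment and none was called by rank products, and 4 and 6 had an unadjusted p under 0.05, all higher in the H-group, where 4.54 and 3.08% of all probe sets did so in that direction. For M against L the counts were 5 higher and 15 lower (median -0.06), where 48.8% of all probe sets differed upwards. Limma and rank products again called none, and 2 had an unadjusted limma p under 0.05, both lower (4.03% of all in either direction). The same M livers enter both comparisons, so their low values are also part of the H against M counts. *Gss*, which encodes glutathione synthetase, the enzyme after glutamate cysteine ligase, had 7.29, 7.52, 7.31, 7.33 and 7.53 in the L livers, 7.47, 7.28, 7.33 and 7.20 in the M livers and 7.62, 7.94, 7.60 and 7.52 in the H livers. All H livers were above all M livers, and H16 lay at the height of L2 and L5. Its difference was 0.35 from M (SE 0.09, limma adjusted p = 0.607) and 0.27 from L (SE 0.09, adjusted p = 0.394). *Abcc4*, an efflux transporter of conjugates, differed by 0.31 from L (SE 0.09, adjusted p = 0.344) and by 0.33 from M (SE 0.10, adjusted p = 0.702).

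In adipose tissue rank products called few of the further targets. Of 18 varying in BAT they called 1 lower (1.29% of all probe sets were) and 1 higher (0.68%). Of 10 varying in WAT they called 2 lower (1.08%) and 0 higher (0.734%). *Me1*, malic enzyme, which supplies NADPH and in fat also serves fatty acid synthesis, was lower in BAT without overlap (0.709% of all were). It had 13.005, 13.3, 13.1, 13.2 and 13.2 in the L BAT and 12.5, 11.9, 11.6 and 11.1 in the H BAT. The difference was -1.38 in BAT (SE 0.26, limma adjusted p = 0.465) and -0.76 in WAT (SE 0.26, adjusted p = 0.686), and rank products called both lower, that in BAT also without H13 and H15 (-1.37). *Cbr1*, a carbonyl reductase, was also called lower in WAT (-1.51, SE 0.62, adjusted p = 0.805), whereas *Gsta4*, a glutathione transferase for lipid aldehydes, was called higher in BAT (0.74, SE 0.37, adjusted p = 0.970), a call that was lost without H13 and H15 (0.48). Over the list, 7 of 18 varying genes were higher in BAT (median -0.08) and 7 of 10 in WAT (median 0.01). The median over all probe sets was 0 in both, and the share of all that differed upwards was not counted there. Limma passed none (0% of all in BAT and 0.0548% in WAT).

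Around *Hmox1*, 11 genes of heme and iron handling were read in the liver, of which 3 varied in WAT and 8 in BAT. None of those counted passed limma or was called by rank products in any comparison. An unadjusted limma p under 0.05 was found for 1 in M against L and 1 in H against M (4.03 and 5.89% of all). Without H13 and H15, *Flvcr1*, a heme exporter, was called lower in BAT by rank products (-0.52, SE 0.25, limma adjusted p = 0.801; -0.24 with all arrays). In the liver *Blvrb*, a biliverdin reductase, was lower in every M rat than in every L rat (-0.20, SE 0.08, limma adjusted p = 0.9999) and 0.25 higher in H than in M (SE 0.08, adjusted p = 0.706). *Bach1*, picked for its role after its values had been seen, differed by -0.01 between H and L (SE 0.07, limma adjusted p = 0.982). Its probe set was dim, with means of 3.46 in the L livers and 3.45 in the H livers. The array medians there were 4.67 to 4.70, so a change in *Bach1* could be missed. The aryl hydrocarbon receptor, a xenobiotic sensor, also reaches *Nqo1*. Of 8 genes of its battery, of which 2 varied in WAT and 6 in BAT, none passed limma. There was 1 unadjusted p under 0.05, in H against M (5.89% of all), and none was called in the liver. *Ahr*, *Arnt*, *Ahrr*, *Cyp1a1*, *Cyp1b1* and *Aldh3a1* averaged 2.90 to 4.23 in the L livers, also below the array medians. A change in these genes could therefore be missed in the liver. *Cyp1b1*, another cytochrome P450 of the battery, was called higher in WAT (0.38, SE 1.5, limma adjusted p = 1.0) and lower in BAT (-0.76, SE 0.47, adjusted p = 0.970), the latter not without H13 and H15 (-0.53). *Cyp1a2*, a cytochrome P450 induced by that receptor, differed by 0.41 between H and L (SE 0.20, adjusted p = 0.568) and by 0.47 between H and M (SE 0.21, adjusted p = 0.830). Of 15 thiol and peroxide enzymes, of which 12 varied in WAT, none passed limma in any comparison. Unadjusted p under 0.05 was found for 4 in BAT (4.47% of all), 2 in H against M (5.89%) and 1 each in H against L (9.05%) and in WAT (5.84%). Rank products called none of the 15 in the liver, and *Glrx* higher in WAT (0.36, SE 0.14, adjusted p = 0.798). They called *Txnip*, which encodes the inhibitor of thioredoxin, lower in BAT (-0.51, SE 0.14, adjusted p = 0.681), also without H13 and H15 (-0.64). Without these arrays *Txnip* alone of the 4 in BAT kept a limma unadjusted p under 0.05 (0.0141), while *Cat* gained one (0.0480).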

How the data were processed

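Total RNA of liver, WAT and BAT was hybridised to 31 Affymetrix arrays, 1 per rat and tissue. The deposited values are log2 expression values that the authors summarised separately for each tissue, by RMA for liver, qFARMS for WAT and GCRMA for BAT, in R and Bioconductor. qFARMS leaves many probe sets with 1 value and GCRMA leaves many at a floor, so small differences there cannot be seen. The study left out rats of low food intake.

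Values were used as deposited. After 57 control probe sets had been set aside, 20826 of 31042 probe sets had 1 gene symbol in the platform annotation. For each tissue a gene was read on its brightest probe set. Rank products (false discovery rate under 0.05 from 100 permutations, Python 3.11.15), the method of the study, and limma 3.58.1 in R 4.3.3 (Benjamini-Hochberg adjusted p under 0.05) were run on all probe sets, the latter with 1 fit for the 3 liver groups and 1 for each adipose tissue. Scripts were tested on simulated data. Correlations used permutations (100000 resamples for 13 livers, all permutations within diets for 9 rats). Members, lists and tests were chosen with earlier results of these data known, and from each further list at most 3 genes per comparison could be named, by lowest limma p. The number of arrays limits the precision. Rat numbers link the tissues of one animal, so a fit between tissues was also run with the rat as a block. Alternatives were array weights, median centring, filters, other probe sets and leaving out each rat.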

Additional observations from a re-analysis of the deposited data

Results flagged for a closer look

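Over the member probe sets, 55 groups of 4 or 5 rats with a range of at least 0.05 were screened for a single rat far from the others. Of these 6 were found, where chance gives about 1 in 20 for independent values without ties. Some BAT values are tied and the groups share rats, so the count cannot be judged against that rate. In the liver M8 had an *Akr7a3* value of 8.99 against 7.81 to 7.99 in the other M rats, and M9 had a *Txnrd1* value of 8.63 against 8.85 to 8.88. On the second *Gclc* probe set the liver of H16 had 8.51 against 8.18 to 8.23 in the other H rats. In BAT H16 had a *Txnrd1* value of 7.05 against 7.57 to 7.67 in the other H rats. L2 stood alone in BAT for *Nqo1*, with 5.43 against 5.20 to 5.25, and for the second *Gclc* probe set, with 3.51 where the other L rats all had 3.39.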

How the results depend on the processing

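Under limma no member probe set passed after adjustment in any setting, and without adjustment 4 did in H against M and 4 in H against L of the liver. The rank products calls in H against L went to 0 at a false discovery rate of 0.01 and to 0 among probe sets above the tissue median. Leaving out each rat gave 0 to 1 calls in M against L (none without L5), 1 to 3 in H against M (1 without H15), 0 to 3 in H against L, 0 to 1 in WAT (1 without L5, H12 or H13) and 1 in BAT. Signs turned for small differences only: *Srxn1* in M against L (-0.0379 to 0.19 when each rat was left out), *Hmox1* in H against M (-0.22 to 0.0761), *Txnrd1* in H against L (-0.0421 as the mean of its probe sets), *Txnrd1* in WAT (-0.0418 with array weights, -0.0476 to 0.0780 when each rat was left out), *Gclc* in BAT (-0.26 to 0.0024) and *Gclm* in BAT (0.12 with array weights, -0.33 to 0.20 when each rat was left out). The cause was not tested. Averaging the 3 *Srxn1* probe sets, 2 of them dim, took its difference to 0.15 in H against M and 0.18 in H against L. The exact permutation test, not adjusted over genes, passed *Nqo1* and *Txnrd1* in H against M (p = 0.0286 each). With 4 against 4 rats this is the smallest p possible, and it restates that these groups did not overlap. In H against L the exact test passed *Gclc*, *Srxn1* (p = 0.0159 each) and *Gclm* (p = 0.0317). For *Hmox1* in the same rats, an alternative chosen after seeing the data, r ranged from 0.801 to 0.957 for liver and BAT, from 0.764 to 0.928 for liver and WAT and from 0.739 to 0.897 for WAT and BAT when each rat was left out. The settings without H13 and H15 and with varying probe sets alone were also chosen after seeing the data. With the rat as a replicate block, the tests between tissues again passed 0 member probe sets for each pair of tissues. The correlation within a rat, estimated once over all probe sets, was 0.0192 for liver and BAT. It was 4.47e-09 for liver and WAT and 4.97e-09 for WAT and BAT. Such a block could hardly change a call, and it did not account for the relation of *Hmox1* between tissues of the same rats. Within the liver no rat belongs to more than 1 diet, so no pairing applied there. With 4 or 5 rats a group, differences of the size of most members lie near the spread between rats.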

Other observations

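The genes whose liver values ran most like each member over the 13 livers, diets included, were listed by Pearson r as a description, since with so many genes some high values arise in any set of 13 arrays. For *Nqo1* they were *Ifi35* (0.901), *Cyp4f17* (0.890) and *Slc39a14* (0.881), and for *Akr7a3* *Rhoa* (0.899), *Pbdc1* (0.872) and *Tbcb* (0.865). For *Gclc* they were *Apool* (0.903), *Scly* (0.903) and *Srebf1* (0.874), the last encoding a transcription factor of lipid synthesis. *Gclm* ran most like *Tef* (0.916), *Nr1d2* (0.900) and *Higd1a* (0.899), of which *Tef* and *Nr1d2* encode transcription factors of the circadian clock. The closest to *Srxn1* were *Vxn* (0.885), *Mybl1* (0.878) and *Sbspon* (0.865), to *Txnrd1* *Czib* (0.883), *Cdr2* (0.851) and *Cela3b* (0.849), and to *Hmox1* *Tes* (0.904), *Kars1* (0.896) and *Akr1c13* (0.876). No member was among the 3 closest genes of another member.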
